A study of Mus musculus with 6 samples.

Results

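Broad open domains are long stretches over which peaks of accessible chromatin join when libraries are merged, and 605 of them were found among 78613 merged open regions in ATAC-seq libraries of mouse bone marrow mesenchymal stem and progenitor cells (MSPCs). The members were chosen from the deposited peak lists. The 65462 strongest peaks of each of 6 libraries on chromosomes 1 to 19 and X were kept and overlapping peaks were merged. Of the merged regions, 49098 held a peak from every library, and those of at least 3000 bp were taken as broad domains. Length, the presence of a peak in every library and the strength that decided which peaks were kept therefore chose the members, and these values are given below as a description. Each domain is named by its nearest protein-coding gene, which is a label of position and does not mean that the domain acts on that gene.

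The study asked how doxorubicin, an anthracycline used against cancer that intercalates into DNA and traps topoisomerase II on it, affects these progenitors. All animals were female and carried Lepr-Cre and the reporter LSL-tdTomato+/-, so that cells with present or past expression of the leptin receptor gene, and their descendants, were labelled red. Mice aged 8 to 10 weeks received 4 intravenous injections at intervals of 1 week, either of doxorubicin at 5 mg/kg (DOX, 3 libraries) or of PBS (3 libraries). Bone marrow was digested with enzymes and its tdTomato-positive cells were sorted 8 weeks after treatment. The labels call the libraries of a group biological replicates but do not give the number of mice behind each one. Values by library are given below in the order PBS replicates 1, 2 and 3, then DOX replicates 1, 2 and 3.

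ATAC-seq maps where a transposase can insert adapters into DNA that nucleosomes leave free. Most regulatory elements are short and give narrow peaks. Long open stretches are known from highly transcribed genes, where passing polymerase can keep the gene body and the sequence past its end accessible, from promoters rich in CpG, and from clusters of enhancers at genes that set cell identity. In LepR-lineage stromal cells, the genes that feed blood stem cells, such as Cxcl12 and Kitl, and the transcription factors Ebf1, Ebf3 and Prrx1 are known parts of that identity.

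The sequences below are the promoters of the 7 longest domains that hold a tabulated start of the gene naming them, and they show what kind of start lies inside a domain. They come from RefSeq (GRCm38.p6), cover 250 bases before to 30 bases after the annotated start and are written 5′ to 3′ on the strand of the gene. Capitals mark TATAAA (the TATA box), CCAAT (the site of NF-Y) or a CArG box (the site of serum response factor), each on either strand. The windows are chr7:19310016-19310295 for Fosb (minus strand), chr7:28379199-28379478 for Zfp36 (minus), chr17:34122578-34122857 for Brd2 (minus), chr10:80148022-80148301 for Midn (plus), chr3:145649956-145650235 for Ccn1 (minus), chr12:85473640-85473919 for Fos (plus) and chr12:55492618-55492897 for Nfkbia (minus).
Fosb: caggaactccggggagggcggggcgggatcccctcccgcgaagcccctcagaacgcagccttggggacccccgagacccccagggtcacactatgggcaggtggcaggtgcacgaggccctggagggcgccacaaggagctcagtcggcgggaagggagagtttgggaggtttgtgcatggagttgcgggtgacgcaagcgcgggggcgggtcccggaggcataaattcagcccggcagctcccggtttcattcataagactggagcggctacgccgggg
Zfp36: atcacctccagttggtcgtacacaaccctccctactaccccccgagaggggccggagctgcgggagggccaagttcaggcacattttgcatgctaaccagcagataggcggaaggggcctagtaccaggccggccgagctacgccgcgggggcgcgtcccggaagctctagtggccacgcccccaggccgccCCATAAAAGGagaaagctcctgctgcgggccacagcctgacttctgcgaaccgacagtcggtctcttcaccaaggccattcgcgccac
Brd2: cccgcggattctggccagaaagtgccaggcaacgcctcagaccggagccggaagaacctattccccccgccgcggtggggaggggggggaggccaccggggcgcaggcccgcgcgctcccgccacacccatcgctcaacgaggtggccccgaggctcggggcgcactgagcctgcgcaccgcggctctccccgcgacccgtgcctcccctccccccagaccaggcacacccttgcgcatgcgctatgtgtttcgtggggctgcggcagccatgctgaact
Midn: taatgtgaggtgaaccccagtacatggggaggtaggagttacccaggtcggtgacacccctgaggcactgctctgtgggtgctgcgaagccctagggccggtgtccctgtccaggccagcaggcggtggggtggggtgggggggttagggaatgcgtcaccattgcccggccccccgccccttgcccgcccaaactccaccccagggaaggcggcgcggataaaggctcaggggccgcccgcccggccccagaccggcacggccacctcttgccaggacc
Ccn1: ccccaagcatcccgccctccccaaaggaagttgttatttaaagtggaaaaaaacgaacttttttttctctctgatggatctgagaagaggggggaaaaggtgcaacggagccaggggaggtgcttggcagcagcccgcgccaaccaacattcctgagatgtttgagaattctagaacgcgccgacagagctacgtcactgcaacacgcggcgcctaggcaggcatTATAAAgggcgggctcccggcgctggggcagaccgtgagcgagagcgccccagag
Fos: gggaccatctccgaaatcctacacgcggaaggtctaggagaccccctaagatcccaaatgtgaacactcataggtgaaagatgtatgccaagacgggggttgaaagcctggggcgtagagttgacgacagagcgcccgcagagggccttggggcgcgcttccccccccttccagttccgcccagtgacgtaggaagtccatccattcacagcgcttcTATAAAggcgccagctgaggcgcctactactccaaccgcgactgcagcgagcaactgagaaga
Nfkbia: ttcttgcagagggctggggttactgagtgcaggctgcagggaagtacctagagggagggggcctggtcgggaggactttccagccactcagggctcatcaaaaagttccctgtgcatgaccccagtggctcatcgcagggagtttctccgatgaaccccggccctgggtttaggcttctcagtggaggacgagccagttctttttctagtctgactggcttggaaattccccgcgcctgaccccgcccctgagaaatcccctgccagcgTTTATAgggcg

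All 280 bases of each of these 7 windows lay under peaks in all 6 libraries. TATAAA was found at Ccn1, Fos and Nfkbia and a CArG box at Zfp36, and no CCAAT was found in the 7 windows. At Ccn1 and Fos the TATAAA lay before the start on the strand of the gene. At Nfkbia it lay after the start on the opposite strand, so there it is a match of letters only. Counted over 300 bases, to 50 bases past the start, the windows held 25 CpG dinucleotides at Fosb, 21 at Zfp36, 32 at Brd2, 17 at Midn, 20 at Ccn1, 20 at Fos and 15 at Nfkbia. The strongest summit did not always sit at the start. At Ccn1 it lay between 3 bases before and 25 bases after the start in all 6 libraries, and at Nfkbia between 131 bases before and 19 after. At Zfp36 it lay 6300 to 6424 bases downstream in 5 libraries, past the end of the 2445 bp gene, and 22 bases upstream in DOX replicate 3. The Zfp36 domain also held a start of the neighbouring gene Plekhg2. At Brd2 it lay 3102 to 3377 bases downstream.

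The 605 domains summed to 2.80 Mb. Their median length was 3690 bp (quartiles 3287 and 4559 bp), 366 were under 4000 bp, 111 reached 5000 bp and 28 reached 10000 bp. The longest, of 43731 bp at chr19:5805915-5849645, lay 1329 bp from Frmd8 and spanned the whole of Neat1 (20773 bp), the long noncoding RNA that builds nuclear paraspeckles. Peaks of the 6 libraries covered 36767, 40951, 30849, 39259, 43292 and 43566 bp of it. It was split into 11, 8, 31, 9, 3 and 1 peaks, so that 1 library listed as a single peak what PBS replicate 3 listed as 31.

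The next longest domain, at chr9:3000003-3038269 (38267 bp), lay 296962 bp from its nearest gene, Alkbh8. It was followed by the domains of Jund (35695 bp), Zswim4 (27856 bp), Fosb (20210 bp), Irf1 (19873 bp), Egr1 (19838 bp), Zfp36 (19479 bp), Brd2 (18776 bp), Midn (15829 bp), Polg2 (15299 bp), Btg1 (14443 bp), Mknk2 (13828 bp), Ccn1 (13741 bp), Fos (13477 bp) and Nr4a1 (12352 bp). Farther down the order came Nfkbia (12026 bp), Ppm1n (11850 bp) and Tnrc18 (11142 bp). Jund, Fosb and Fos encode subunits of the transcription factor AP-1, Egr1 and Nr4a1 are further immediate early transcription factors, Zfp36 encodes a protein that destabilises messenger RNA, and Nfkbia encodes the inhibitor that retains NF-kB in the cytoplasm. Brd2 encodes a reader of acetylated histones, Btg1 an antiproliferative factor, Mknk2 a kinase of a translation initiation factor and Ccn1 a matricellular protein.

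**Figure D1:**
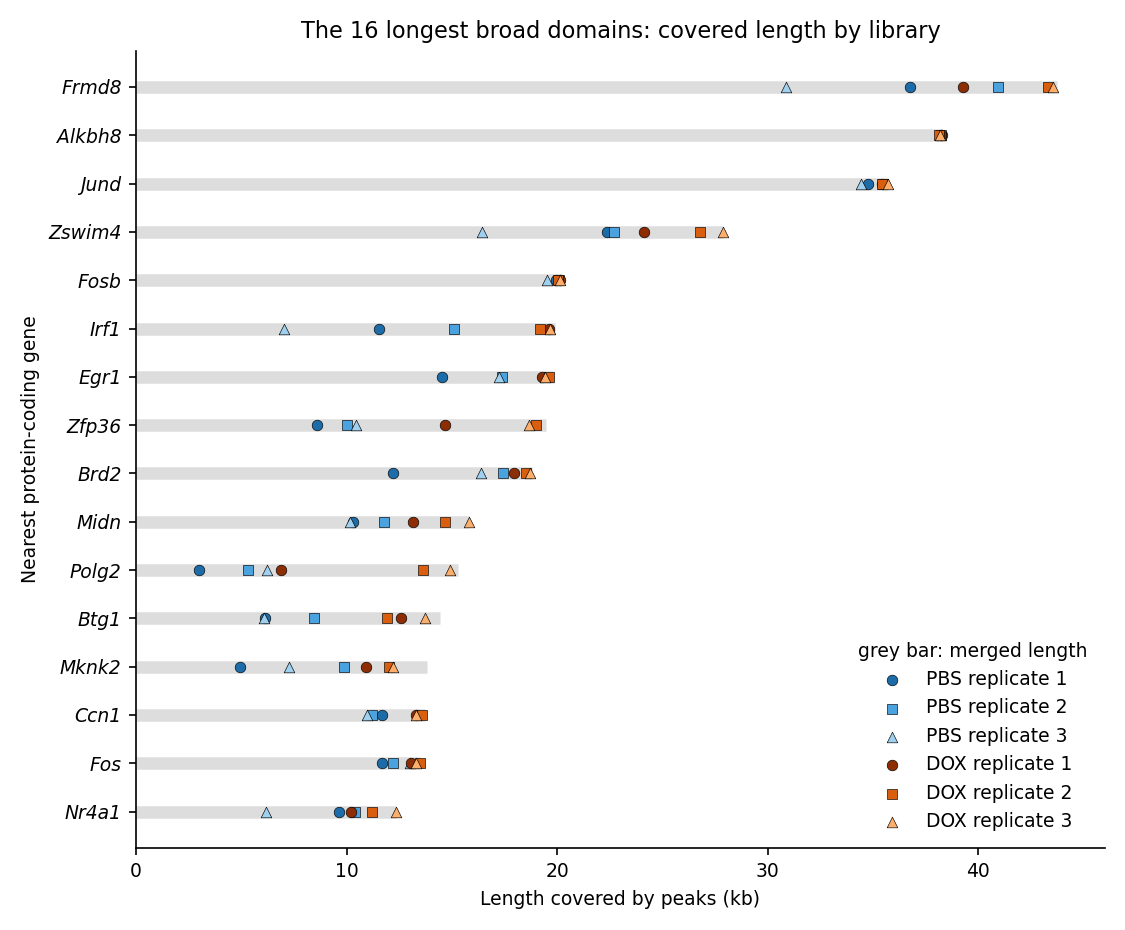
Length covered by peaks (x axis, kb) in each of 6 libraries (points) for the 16 longest broad domains, named by the nearest protein-coding gene, with the merged length as a grey bar. The 6 libraries nearly coincide at Fosb, between 19491 and 20121 bp, and spread widely at Irf1, from 7023 to 19635 bp.

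How far the libraries agreed differed between these domains. At Fosb the covered length was 19954, 20060, 19491, 20121, 20032 and 20113 bp. At Jund it was 34768, 35454, 34419, 35424, 35441 and 35695 bp. Each of the 6 libraries thus listed nearly the whole of both domains. At Fos the values were 11688, 12217, 13028, 13065, 13477 and 13281 bp, with every DOX library above every PBS library by a small margin. At Irf1, a transcription factor of interferon responses, they were 11534, 15101, 7023, 19595, 19199 and 19635 bp, with no overlap between the groups. At Polg2 they were 2965, 5305, 6195, 6886, 13630 and 14885 bp, so that PBS replicate 1 listed only a small piece of this domain and DOX replicate 3 nearly all of it. In plain base pairs every DOX library covered more than every PBS library at 45.1% of domains and 35.4% of all shared regions.

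Libraries differed in depth and in the length they covered. The lists held 88348, 89264, 65462, 91026, 91060 and 100642 peaks before they were cut to equal length, and the background pileup recovered from the fold values was 1.27, 1.096, 0.558, 1.72, 1.67 and 2.22 reads. Each DOX library had more background reads than any PBS library, so depth and treatment cannot be told apart in any measure of width. In bulk libraries, fewer cells with a domain and less accessibility per cell cannot be told apart either. The number of domains covered over at least 3000 bp was 296, 379 and 197 for PBS against 429, 458 and 515 for DOX. The median length covered was 2980, 3163, 2645, 3295, 3399 and 3466 bp, and the mean number of peaks per domain was 1.93, 1.65, 2.95, 1.58, 1.47 and 1.35. In the shallowest library, PBS replicate 3, the domains were covered least and were broken into the most peaks, and it was the least covered library in 468 of the 605. Its domains nevertheless made up 6.35% of all length under its peaks, against 5.55% to 5.71% in the other 5 libraries.

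Because the members were defined on merged intervals, not all were broad in each library. Only 181 were covered over at least 3000 bp in all 6 libraries and 41 were in none. A single peak of at least 3000 bp was listed in all 6 libraries for 59 domains and in none for 72. The PBS libraries alone reached 3000 bp at 343 domains and the DOX libraries alone at 568. Both groups did so at 323 domains, only DOX at 245, only PBS at 20, and neither without the other at 17. The stretch shared by all 6 libraries made up a median of 65.5% of a domain (quartiles 52.8% and 76.5%). The strongest summits of the 6 libraries lay within 500 bp of each other in 493 domains (81.5%), with a median spread of 52 bp, and over 2000 bp apart in 37.

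The members nearest the length limit show how little separates them from other regions. Just inside it were the domains of Ttc28 (3001 bp), Rhoc (3002 bp), Soga1 (3006 bp), Glis2 (3012 bp) and Trim8 (3013 bp). Just outside it were the regions of Gli3 (2999 bp), Map7d1 (2995 bp), Polr1d (2994 bp), Fmc1 (2991 bp) and Arhgef2 (2991 bp).

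The strength of a domain is given here as the rank of its strongest peak in the list of a library, in percent, where 0 is the strongest peak. The median over domains was 8.52%, 8.34%, 8.60%, 8.92%, 8.55% and 8.89% in the 6 libraries, and 327 domains (54.0%) had a median rank in the top 10%. Another 35 ranked below the midpoint of the lists. Length and rank were close to unrelated across the 605 domains (Spearman's rho −0.05, a description over domains that share the same 6 libraries). Only 3 domains stood apart in height, the pileup at the summit over the background of the library, and all 3 lay over 100 kb from a gene. The Alkbh8-nearest domain reached 1584, 692, 1741, 817, 251 and 262 times the background. The domain at chr14:19415715-19419709, nearest to Gm2244, reached 2201, 960, 2440, 1141, 358 and 352 times. The domain at chr17:39842994-39848857, nearest to Esp38, reached 1178, 1286, 1967, 1113, 1030 and 1027 times. The median height over all domains was 163 to 192 times in the 6 libraries. No source used here says how reads that map to several places were handled.

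After these 3, the best ranked domains were those of Hspa5, Fam72a, E2f3, Zswim4 (chr8:84235492-84238570), Rhob, Iffo2 and Lrch4, and all 7 held the start of the gene that names them. Hspa5, the main chaperone of the endoplasmic reticulum, ranked at 0.0382%, 0.055%, 0.0642%, 0.058%, 0.0244% and 0.0168%. E2f3, a transcription factor of cell cycle entry, ranked at 0.11%, 0.116%, 0.0336%, 0.196%, 0.174% and 0.13%. Rhob, a small GTPase of endosomes and the cytoskeleton, ranked at 0.302%, 0.104%, 0.183%, 0.128%, 0.217% and 0.186%. The weakest domains were low plateaus inside or beside a gene. At one inside Ebf3 (chr7:137205625-137209128) the strongest peak ranked at 86.3%, 80.2%, 94.9%, 93.4%, 76.2% and 83.5%. Others lay at Adamts1, which encodes a matrix protease, at Epas1 (chr17:86779225-86782327), at a second site in Ebf3 (chr7:137257113-137260230) and at Rufy1, with median ranks of 84.2%, 82.3%, 82.2% and 81.7%.

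**Figure D2:**
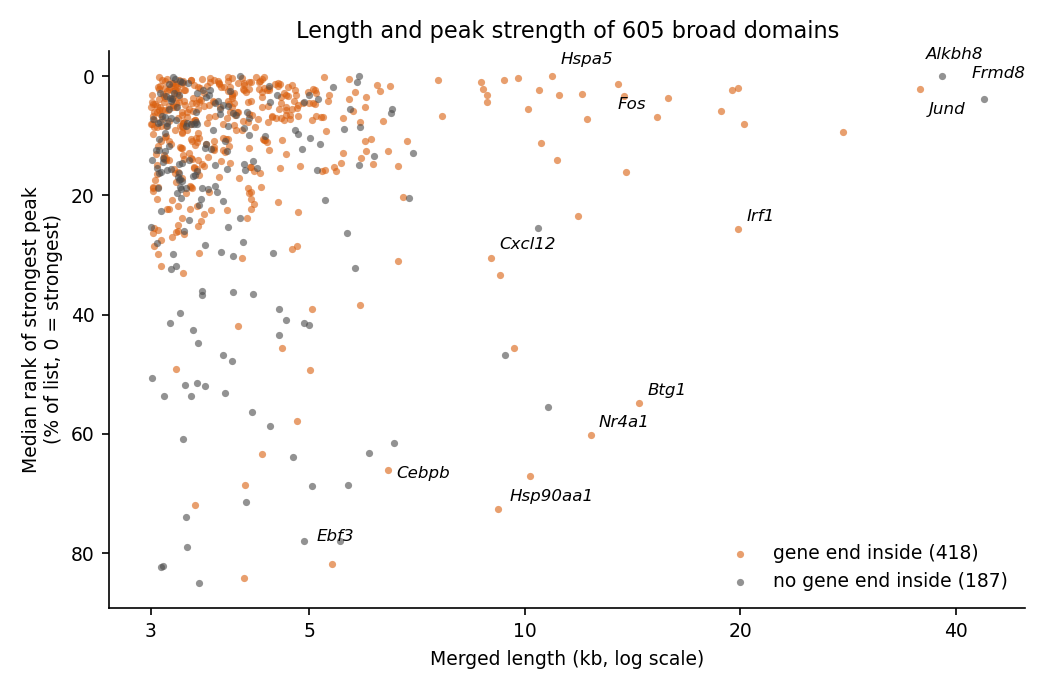
Merged length (x axis, kb, log scale) against the median rank over 6 libraries of the strongest peak (y axis, % of the list, strongest at the top) for 605 broad domains, with the 418 domains that contain a gene end in orange and the other 187 in grey. Strong and weak domains occur at most lengths: Jund ranks near the top, and Btg1 at a median of 54.9% and Nr4a1 at 60.3% are long but weak.

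Most domains lay at genes. Of the 605, 538 (88.9%) overlapped a protein-coding gene, and 597 lay within 100 kb of one. An annotated end of a gene, either its start or its end, lay inside 418 domains (69.1%), against 20.03% of the 48493 shared regions under 3000 bp. A RefSeq start site lay inside 341 of the 586 domains off chromosome 18 (58.2%), against 18.9% of the shorter shared regions. Longer regions hold more sequence, and the share with a start rose with length: it was 2.53% under 500 bp, 11.5% from 500 to under 1000 bp, 40.02% from 1000 to under 2000 bp and 59.7% from 2000 to under 3000 bp. The domains of 3000 bp or more, at 58.2%, thus held a start about as often as regions of 2000 to under 3000 bp, while the share with a gene end went on from 61.7% to 69.1%. These shares are descriptions and were not tested.

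By position, the start of the naming gene lay inside 328 domains, 85 began inside the gene with the start elsewhere, 30 lay wholly beyond its end, 29 lay wholly upstream, and 133 were named by a gene whose start is not in the table. Of the 85 that began inside the gene, 74 had the gene's start in another shared region, and 38 reached past the gene's end. Starts of at least 2 genes lay inside 30 domains. A whole protein-coding gene lay inside 32 domains and a long noncoding RNA gene overlapped 159.

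Domains with a start reached farther into the gene than away from it. Reach was measured from the most upstream tabulated start inside the region. Where a gene had several starts inside, this choice lengthens the downstream side. In the 311 domains that held the start of a single gene, the median reach was 1330 bp upstream (quartiles 867 and 1982 bp) and 2400 bp downstream (1822.5 and 3143.5 bp), and the downstream side was the longer in 228 (73.3%). The same lean was seen in shorter regions, with 72.8% of those of 2000 to under 3000 bp and 72.03% of those of 1000 to under 2000 bp. The domain reached past the far end of the gene in 21 of 311 (6.75%), against 0.364% and 0.204% of those shorter regions. No test was made of this difference, and a longer region can reach farther by its length alone.

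**Figure D3:**
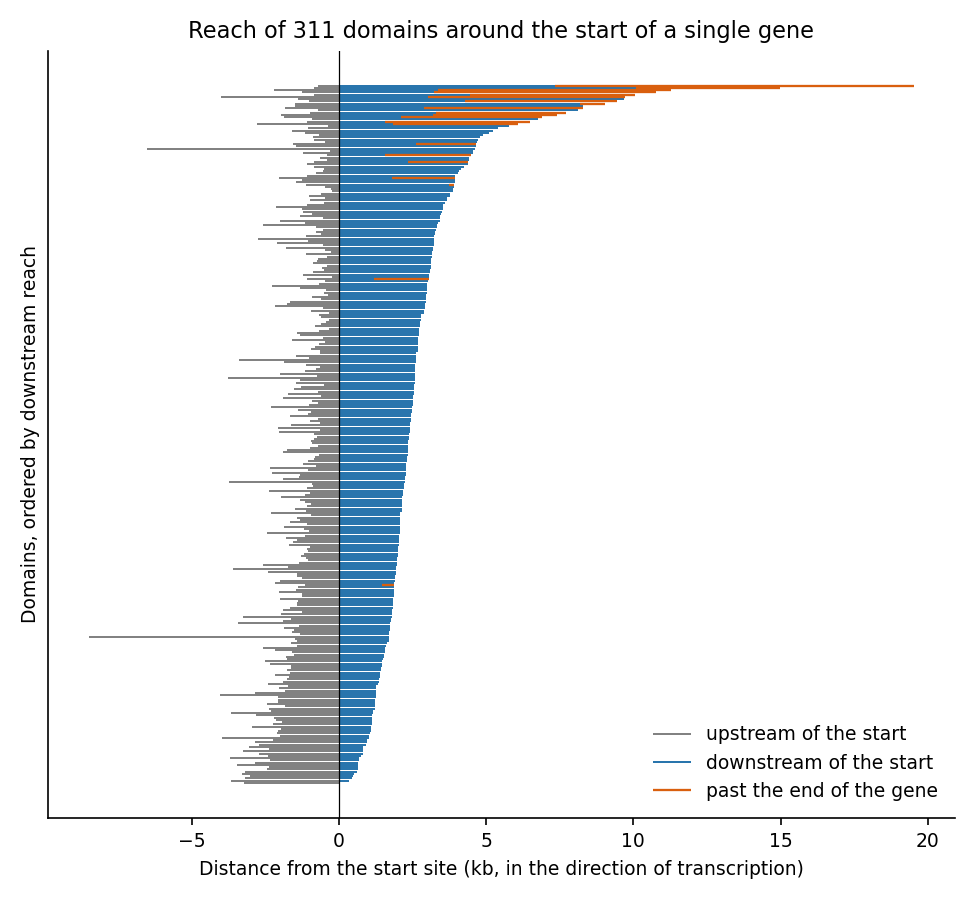
Reach of the 311 broad domains that contain the start of a single gene (one line each, ordered by downstream reach), in kb from the start site in the direction of transcription. Grey is upstream, blue is downstream inside the gene and orange is past the gene's end, which 21 domains pass.

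Among the 423 domains that overlapped a gene of known strand, 67 reached past its end, 59 of them by at least 1000 bp and 21 by at least 5000 bp. Of the 30 that were 8000 bp or longer, 25 passed the end by at least 1000 bp. Domains with no gene of known strand over them are not in this count, among them the 2 longest. The Jund domain began 198 bp after the start of the 2878 bp gene and ran 33015 bp past its end. It also held a start of Pde4c and the whole of Iqcn and Gm3336 with their starts, so it is not a stretch at Jund alone. The length covered past the end of Jund was 32254, 32991, 32055, 32952, 32968 and 33015 bp. At Fos, a gene of 3385 bp, peaks covered 6131, 6741, 7618, 7534, 7901 and 7719 bp past the end. At Nfkbia, of 3239 bp, they covered 6787, 7057, 4777, 7216, 7175 and 7529 bp. The groups overlapped at Jund and Fos. They did not at Nfkbia, where PBS replicate 3 was lowest. Such a separation in the length covered over the whole region was seen at 45.1% of domains and 35.4% of all regions.

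Other domains were covered past the gene's end over different lengths in different libraries. Past the end of Zfp36 peaks covered 5718, 6943 and 7398 bp in PBS against 11496, 15888 and 15508 bp in DOX, although the farthest peak of PBS replicate 3 ended 15457 bp past the gene, close to 15579, 16322 and 15646 bp in DOX. This domain also held a start of the neighbouring Plekhg2, so it is not a stretch at Zfp36 alone. Past the end of Irf1 the values were 8644, 10696 and 5422 bp against 13385, 13394 and 13477 bp. Past the end of Btg1 they were 4543, 6669 and 4680 bp against 10438, 10090 and 11569 bp. In these 3 the groups did not overlap. Over whole domains in plain base pairs, every DOX library was above every PBS library at 45.1% of domains and 35.4% of all regions. The longest stretch joined from PBS peaks alone was 8967 bp at Zfp36, 8615 bp at Irf1 and 2107 bp at Btg1. The Btg1 domain thus reached 3000 bp only through the DOX libraries, and its place among the domains rests on the same difference. Around Cebpb, an intronless gene of 1518 bp for a C/EBP transcription factor, the values were 3952, 6001, 2356, 6222, 5674 and 6333 bp, and there the groups overlapped. Depth moves with treatment here too, and its part in these differences was not tested.

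**Figure D4:**
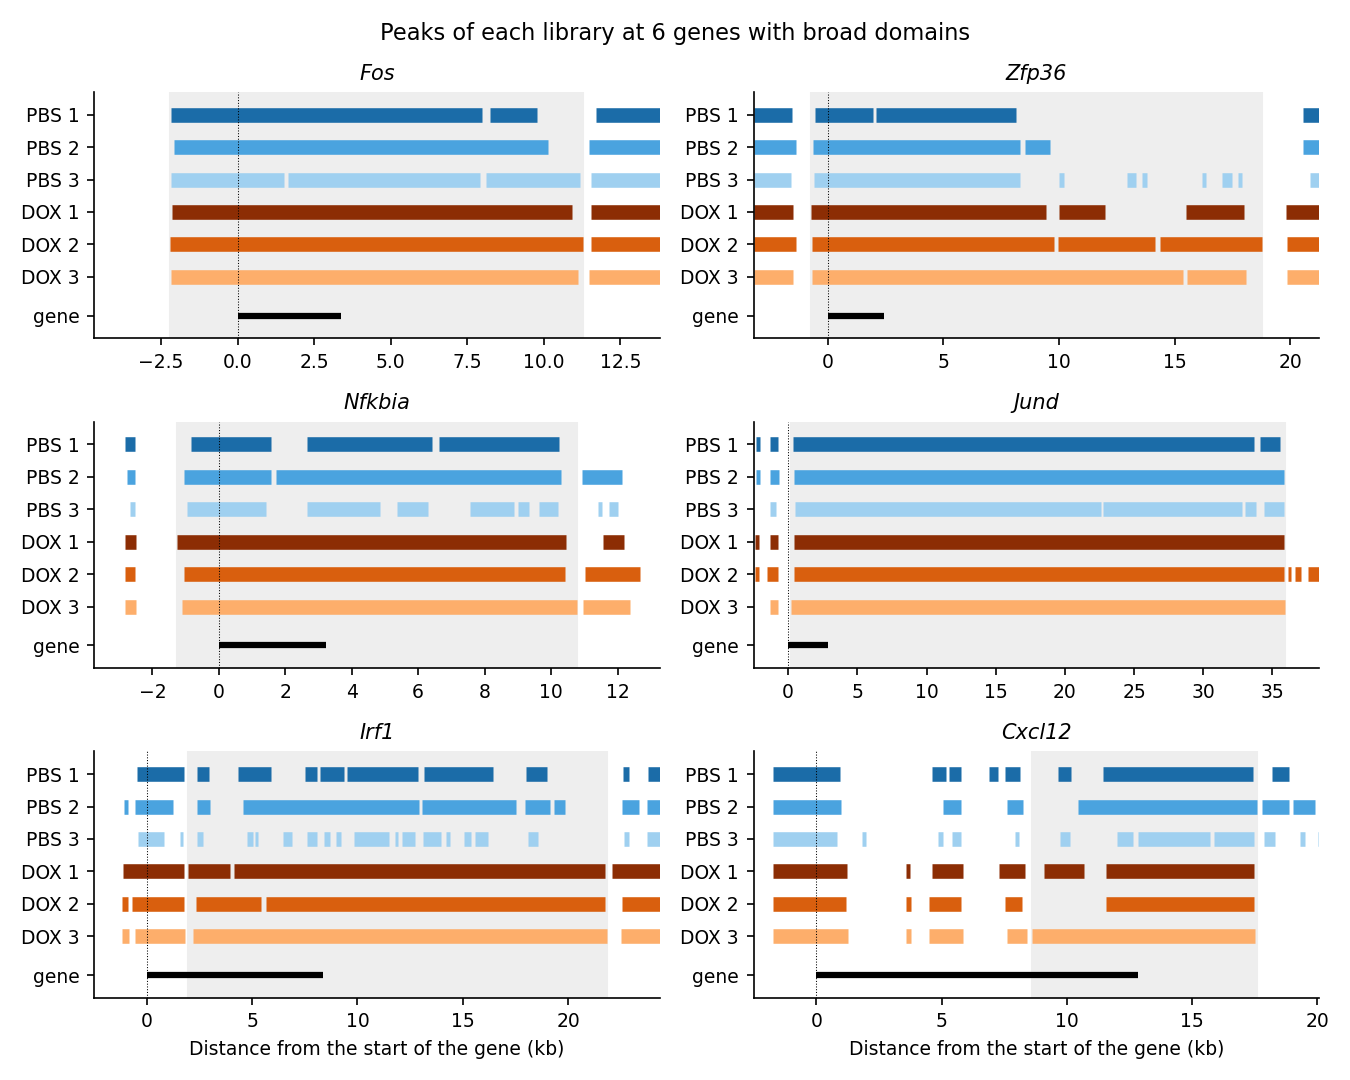
Peaks of each of 6 libraries (bars) at 6 genes, by distance from the start of the gene in kb along its strand, with the gene as a black line and the merged domain shaded. At Jund the bars run about 33 kb past the gene in all 6 libraries, while at Zfp36 they cover less in the PBS libraries, with 5718 to 7398 bp covered past the gene against 11496 to 15888 bp.

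Some genes carried several domains. The 605 domains had 540 nearest genes, and 43 genes were nearest to at least 2, together 108 domains. Runx1, a transcription factor best known from blood but also of the skeletal lineage, was nearest to 8 (33492 bp in all, over a span of 103389 bp). One held an internal start of the gene (chr16:92696496-92700373) and ranked at 3.47%, 2.35%, 2.03%, 2.57%, 1.79% and 2.77%. Of the other 7, 6 lay inside the gene and 1 over its end (chr16:92596985-92601999), with median ranks from 14.98% to 79.0%. Ebf3, which with Ebf1 maintains the LepR-lineage stromal state, was nearest to 5 domains (19532 bp), with median ranks from 40.8% to 84.9%. Of these, 4 lay inside the gene and 1 began 5 bp past its end (chr7:137188747-137193666), and none held its start. Irf1, Hspa8 (a constitutive heat shock protein), Epas1 (HIF-2alpha) and Tns3 (a focal adhesion protein) were nearest to 4 each, and others, among them Vasn, Sfi1, Lmna and Bcor, to 3 each. At 63 places, neighbouring domains lay within 10 kb of each other.

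The 3 Sfi1 domains split the libraries in a way that did not follow treatment. At chr11:3152509-3159072 the covered length was 6442, 1002, 5514, 6564, 1098 and 937 bp. At chr11:3190195-3195017 it was 4048, 959, 2454, 4805, 1123 and 938 bp. At chr11:3159440-3164175 it was 4551, 2576, 3993, 4576, 702 and 1153 bp. PBS replicates 1 and 3 and DOX replicate 1 were long and the other 3 libraries short, and the same 3 libraries had the highest summits at the Alkbh8-nearest and Gm2244-nearest domains.

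Domains also covered hairpins of microRNAs, short RNAs that repress messenger RNAs through the seed at their 5′ end, and 13 domains held 17 hairpins of the RefSeq microRNA table (the RefSeq gene table puts 22 microRNA genes in 17 domains). The Zswim4 domain of 27856 bp (chr8:84200053-84227908) covered the Mir23a, Mir27a and Mir24-2 cluster, the domain at Hic1 (chr11:75168023-75173999, 5977 bp) covered Mir132 and Mir212, and the domain at chr11:75458227-75464052, nearest to Wdr81, covered Mir22. These 3 domains were chosen for their microRNAs after the positions were seen, and the mature sequences are printed because the loci are clusters or well-studied genes. ATAC-seq says nothing of their levels. Capitals mark the seed (bases 2 to 8), and the sequences are from RefSeq (GRCm38.p6).
mmu-miR-23a-3p: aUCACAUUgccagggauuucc
mmu-miR-27a-3p: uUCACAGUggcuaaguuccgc
mmu-miR-24-3p: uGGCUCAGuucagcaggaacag
mmu-miR-132-3p: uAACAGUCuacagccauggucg
mmu-miR-212-3p: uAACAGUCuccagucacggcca
mmu-miR-22-3p: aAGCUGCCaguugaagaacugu

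The seeds of mmu-miR-132-3p and mmu-miR-212-3p were identical, and the other 4 differed from it and from each other. Peaks covered 22379, 22705, 16423, 24134, 26778 and 27856 bp of the Zswim4 domain, 5303, 5564, 4469, 5452, 5458 and 5771 bp of the Hic1 domain, and 4886, 5268, 4178, 5569, 5343 and 5426 bp of the domain with Mir22. The first was listed as 4, 4, 18, 3, 3 and 1 peaks.

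The start sites inside domains were rich in CpG. The 474 start sites (372 genes) had a median of 25 CpG dinucleotides in the 300 bases around the start and a median GC content of 64.7%. The 11012 starts in other shared regions had 22 and 62%, and the 9559 starts in no shared region 4 and 49%. The 1658 starts in shared regions of 2000 to under 3000 bp had 26 and 66.7%, so this richness was not particular to the domains. Sp and Klf motifs (GGGCGG, either strand) were found in 75.9% of the promoters in domains, 69.1% of those in other shared regions and 46.7% of all. TATAAA was found in 8.65%, 5.76% and 12.7%, CCAAT in 35.0%, 38.3% and 38.5%, and the AP-1 motif TGANTCA in 4.22%, 4.06% and 7.04%. The EBF motif (TCCC followed after any 2 bases by its reverse complement GGGA) was found in 2.11% (10 promoters), 1.01% and 0.965%, the RUNX motif TGTGGT in 8.44%, 11.3% and 14.7%, and the forkhead motif TGTTTAC in 3.80%, 2.34% and 3.03%. The cyclic AMP response element TGACGTCA was found in 1.05% (5 promoters), 3.52% and 2.26%, and a CArG box in 2.74% (13 promoters), 1.15% and 1.54%. A match is a match of letters, GGGCGG contains CpG and so rises with it, and none of these shares was tested.

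Lists of genes were compared with all 21631 protein-coding genes, of which 598 (2.76%) were nearest to a domain or had an end inside one. These shares are descriptions of lists chosen with earlier results of these data known. Immediate early genes, which cells switch on within minutes of a stimulus, had the highest share, 25 of 31. Their 32 domains ran from 3086 to 35695 bp with a median of 5632 bp, 8 reached 10000 bp, and 18 were covered over 3000 bp or more in all 6 libraries. Of the 20 whose naming gene has a known strand, 13 passed the end of that gene by at least 1000 bp. The naming gene was not always the listed one. Among the 13, the domain at chr12:80110439-80116781 passed the end of Gm52006 but only held the start of the listed Zfp36l1. Jun, the partner of Fos in AP-1, had a domain of 9360 bp covered over 7502, 9337, 8353, 8457, 9045 and 9121 bp, and Junb one of 8861 bp covered over 7292, 7944, 7575, 7865, 8861 and 8624 bp. Dusp1, a phosphatase that shuts off MAP kinases, had one of 10112 bp, and Btg2, an antiproliferative factor, one of 10459 bp. Klf2, Klf4, Klf6 and Myc had domains as well. The 6 genes of the list without one were Fosl1, Atf3, Ier5, Nr4a2, Maff and Cebpd, whose longest shared regions measured 949 to 2635 bp.

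**Figure D5:**
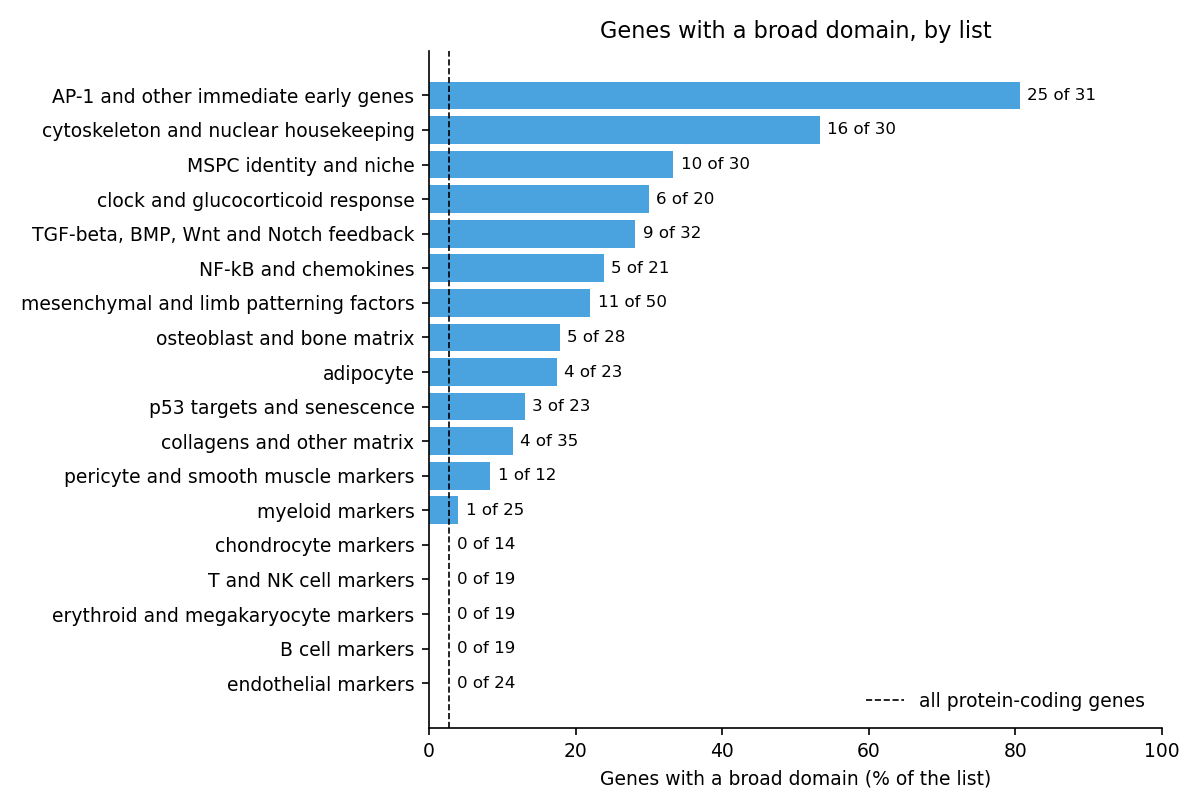
Share of each gene list (x axis, %) with a broad domain nearest to the gene or over one of its ends, with counts beside the bars and the share of all protein-coding genes as a dashed line (2.76%). Immediate early genes lead with 25 of 31, and 5 of the 7 lists of other cell types have none. Lists this short can easily have none at the share of all genes.

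Genes of MSPC identity and of the blood stem cell niche had domains at 10 of 30 members. Cxcl12, the chemokine that retains blood stem cells, had 2. The longer (chr6:117177151-117186110, 8960 bp) began inside the gene and ran 4742 bp past its end, with 6543, 7140, 5570, 7527, 5906 and 8884 bp covered. The shorter (chr6:117166792-117169813, 3022 bp) held the start, with 2699, 2703, 2544, 2950, 2902 and 2999 bp covered. Groups overlapped at the first and not at the second. Pdgfra, a receptor used to sort these cells, had a domain of 6845 bp over its start with 6255, 6748, 5663, 6526, 6627 and 6600 bp covered, and Pdgfrb had 2 domains of 4087 and 3578 bp. Kitl, the stem cell factor, had 1 of 3014 bp inside the gene, with 309, 1832, 789, 2652, 2150 and 3004 bp covered, with every DOX library above every PBS library. The PBS libraries alone could not reach 3000 bp there, so its place among the domains rests on the DOX libraries. In plain base pairs, every DOX library was above every PBS library at 45.1% of domains and 35.4% of all regions. Ebf1 (3119 bp), Prrx1 (3203 bp), Grem1 (3069 bp), a BMP antagonist, Igfbp5 (4450 bp) and Fstl1 (3847 bp) had 1 domain each. Lepr, whose promoter drives the Cre, had no domain. Its longest shared region measured 1293 bp, and those of Foxc1, Vcam1 and Adipoq measured 2202, 1886 and 1452 bp. Of the 20 listed genes with a start in the table, 19 had it in a shared region of some length, against 9707 of 17274 for all protein-coding genes.

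Lists of other cell types had few domains or none. None of the 19 B cell, 19 erythroid and megakaryocyte, 19 T and NK cell, 24 endothelial or 14 chondrocyte markers had one. The share of all protein-coding genes was 2.76%, at which lists this short can easily have none. These counts therefore do not show a lack of domains. Among 25 myeloid markers only Cd68 did (5750 bp), in a domain that also held an end of the neighbouring Mpdu1, and among 12 pericyte and smooth muscle markers only Notch3 (3537 bp), which is also in the list of signalling feedback. Starts in a shared region of any length were found for 1 of 15 B cell, 2 of 19 myeloid, 2 of 16 erythroid, 0 of 15 T and NK cell, 2 of 10 chondrocyte, 5 of 15 endothelial and 5 of 9 pericyte and smooth muscle markers with a start in the table. For all protein-coding genes with a start in the table it was 9707 of 17274. The pericyte and smooth muscle share was close to that of all genes.

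Lineage and stress regulators fell between. The osteoblast list had 5 of 28 genes with a domain. Among them were Runx2, the master factor of bone, with 2 inside the gene (5645 and 4540 bp), Dlx6, Atf4 and Bmp4. The adipocyte list had 4 of 23: Cebpa (6209 bp), Cebpb (6438 and 3333 bp), Zfp423 (5537 bp) and Gpd1, whose end shared a domain with Cox14. The patterning list had 11 of 50, all under 5000 bp, with Tcf7l2 (4785 bp), Nfib (4550 bp) and Irx5 (4394 bp) the longest. NF-kB genes and chemokines had 5 of 21, clock and glucocorticoid genes 6 of 20, and feedback genes of TGF-beta, BMP, Wnt and Notch 9 of 32, among them Ski (9772 bp), a repressor of Smad signalling, and Id3 (7550 bp), an inhibitor of bHLH factors. The p53 list had 3 of 23: Trp53 itself (3183 bp), Bbc3 (5579 bp), which encodes the cell death protein PUMA and was 1 peak in every library, and Gadd45b (8745 bp). Collagens and other matrix genes had 4 of 35. Cytoskeleton and nuclear housekeeping genes had 16 of 30, with Hspa8 and Hsp90aa1 among those nearest to a domain over 10000 bp. The domain of that length nearest to Hspa8 (10768 bp) lay 15499 bp from the gene. It held no gene end and had a median rank of 55.5%.

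Strength in DOX and PBS was compared with limma on ranks in all 49098 shared regions. Rank also decided which peaks were kept, so what follows for the domains is a description and no test. After Benjamini-Hochberg adjustment no region was called higher or lower in DOX (0% of regions each way), and so no domain was. The lowest adjusted p was 0.0705 over all regions and 0.106 over domains. At an unadjusted p under 0.05, 54 domains (8.93%) ranked higher in DOX against 8.07% of all regions, and 39 (6.45%) ranked lower against 4.88%. Every DOX library ranked above every PBS library in 64 domains (10.6%, with 10.9% of all regions) and below in 61 (10.1%, with 7.9% of all regions). The shares ranking higher were close to those of all regions, and the shares ranking lower were somewhat above them. The rank difference was above 0 in 276 domains (45.6%) against 54.4% of all regions, with medians of −0.014 and 0.015. The difference between these shares was not tested.

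The domains with the largest rank differences among those whose groups did not overlap are given as a description. Rtn2, a gene between Fosb and Ppm1n that encodes a reticulon of the endoplasmic reticulum, had a domain (chr7:19285894-19290422) that ranked at 64.6%, 55.0% and 44.8% in PBS against 42.1%, 30.6% and 30.0% in DOX. Its limma difference on the normal quantile scale was 0.53 ± 0.13 (SE), adjusted p = 0.145. The Plekhg2-nearest domain downstream of Zfp36 (chr7:28355892-28359384) ranked at 49.3%, 58.5% and 57.3% against 36.2%, 40.2% and 35.6% (0.45 ± 0.11, limma adjusted p = 0.134). The Slc38a2, Icos-nearest and 1700029H14Rik-nearest domains followed. In the other direction, Unc45b ranked at 48.1%, 47.0% and 43.9% against 58.9%, 64.5% and 58.3% (−0.36 ± 0.12, limma adjusted p = 0.245), and Tlcd1 at 2.92%, 2.37% and 1.36% against 4.42%, 4.98% and 4.29% (−0.34 ± 0.08, limma adjusted p = 0.124). Agbl5, Hivep1 and Phf21a came next.

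Covered length was fitted in the same regions after each library was centred on its median over them, which was 542, 587, 416, 623, 639 and 665 bp. Limma called 18 regions longer in DOX (0.0367%) and 1 shorter (0.00204%). Length chose the domains, so what follows for them is a description and no test. Among them 2 were called longer and none shorter (0.331% and 0%). At an unadjusted p under 0.05, 46 domains (7.6%) were longer against 4.93% of all regions, and 105 (17.4%) were shorter against 5.5%. The domain at Slc38a2 (chr15:96683380-96687671), which encodes a sodium-coupled transporter of neutral amino acids, ran 4012 bp past the end of the gene. It was covered over 690, 765 and 397 bp in PBS against 3506, 3377 and 4254 bp in DOX. The mean was 617 ± 194 bp in PBS and 3712 ± 474 bp in DOX (SD, n = 3 each), and the log2 difference after centring was 2.30 ± 0.14 (SE). The domain at Epas1 (chr17:86782747-86787666), which encodes the hypoxia factor HIF-2alpha, was covered over 876, 1327 and 462 bp against 4274, 3226 and 4920 bp (1.99 ± 0.24). Both were a single peak in every library. Both reached 3000 bp only through the DOX libraries, so their place among the domains rests on the same difference. Epas1 kept its call in 1 of 14 alternatives, with a difference of 1.56 to 2.33 over them. Slc38a2 had a value in 12 and kept its call in 10, with a difference of 1.33 to 2.64, and lost it with the full lists and without centring. It had no value with shorter lists or the height limit, under which it was not a shared region.

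Without centring, 590 of 605 domains (97.5%) and 95.9% of all regions were longer in DOX, with median log2 differences of 0.21 and 0.28. After centring, 176 domains (29.1%) and 41.4% of all regions were longer, with medians of −0.12 and −0.05. The direction for the domains as a whole thus depended on the scaling. Every DOX library was longer than every PBS library after centring at 43 domains (7.11%, with 5.91% of all regions) and shorter at 186 (30.7%, with 15.4% of all regions). At the 323 domains that reached 3000 bp in each group alone the centred median was −0.17. In plain base pairs every DOX library was longer than every PBS library at 273 domains (45.1%, with 35.4% of all regions) and shorter at 2 (0.331%, with 0.0815%), the Esp38-nearest domain and Pcbp1. At Pcbp1, which encodes an RNA-binding protein, peaks covered 3159, 3086 and 3176 bp against 2185, 3051 and 2720 bp (centred log2 difference −0.59 ± 0.16). Among domains whose groups did not overlap after centring, Sirt4, Ddx5 (chr11:106786590-106790087), the Esp38-nearest domain and Igfbp5 came next after Pcbp1. The number of peaks in a domain was lower in every DOX library than in every PBS library at 46 domains (7.6%, with 0.578% of all regions) and higher at 1 (0.165%, with 0.0183%), the Esp38-nearest domain. The count of peaks moves with the depth described above, and its part in these shares was not tested.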

How the data were processed

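The files hold ATAC-seq peaks called by the authors in each library separately, in narrowPeak layout. The submitters' processing notes name build mm10 and MACS2 2.2.7.1, Bowtie2 2.4.5, Trim Galore 0.6.6, Picard 2.10.9, DiffBind 3.16.0, DESeq2, MultiQC 1.7 and FastQC 0.11.5, with no settings. Each peak has the authors' deposited score, fold ratio over background, −log10 p, −log10 q and summit position. The lists hold no read counts. They were cut here to equal length by −log10 p (ties by fold ratio, then position) and merged at 1 bp of overlap. Background pileup was solved from the fold ratio and −log10 p of a sample of peaks with intermediate −log10 p, and height is pileup over background. Genes and starts are from RefSeq (GRCm38.p6). The promoter table has 21045 start sites of 17274 genes and none on chromosome 18. All 49098 shared regions were fitted with limma 3.58.1 (R 4.3.3, trend and robust moderation, Benjamini-Hochberg adjustment, threshold 0.05) on the normal quantile of the best rank and on log2 covered bp centred by library median. On simulated data with 200 changed regions among 49098, the rank fit recovered 18% of shifts of 0.5 and 68.5% of shifts of 1, and the length fit 0% and 42%. Nothing in the labels says whether libraries came from separate animals or pools, so the spread behind a p-value is that between these 6 libraries and may be technical.

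Named domains are the 20 longest, the 10 with most cover in their least covered library, the 10 best and 5 worst ranked, those called or with the 5 largest differences without overlap of groups, those of the listed genes, genes with several domains, the 5 on each side of the length limit, and those with most and fewest peaks. The TGACGTCA and CArG motifs and the microRNA loci were added after seeing the data. Some domains that this rule names are not reported here. The domains and gene lists were chosen with earlier results of these data known.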

Additional observations from a re-analysis of the deposited data

How the results depend on the processing

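The number of domains stayed within 1.5 times of 605 with the full lists (660), 32731 peaks per list (543), heights of at least 20 times the background (576), 100 bp of overlap (599), ties broken by chromosome number (603, chosen after seeing the data) and with each library left out in turn (525 to 601). It was 1212 at 2500 bp, 239 at 4000 bp and 181 where every library had to cover 3000 bp. A gene end lay within 1000 bp of 73.7% of domains. For rank, limma called 2 regions higher with 32731 peaks per list, 14 higher and 2 lower with log2 of the rank, and 26 higher and 3 lower with the replicate block, with no domain among them. Leaving out libraries gave 0 to 64 higher and 0 to 7 lower, with 0 to 1 and 0 to 2 domains. The most came without PBS replicate 1 (64 higher, 7 lower). For covered length, domains called longer numbered 1 with the full lists, 100 bp of overlap, the other ties or moderation without the trend and robust options. They numbered 0 with the height limit or no centring, 5 with the replicate block and 1 to 3 with libraries left out. All regions longer numbered 7 with the full lists, 67 with 32731 peaks per list, 37 with the block, 0 without centring and 1 to 43 with libraries left out (43 without PBS replicate 2). The single shorter call fell to 0 with the full lists, the shorter lists, the height limit and no centring, and to 0 to 1 with libraries left out. Neither Slc38a2 nor Epas1 changed direction under any alternative that gave a value. The median over domains was −0.12 with centring and 0.21 without. The cause of these shifts was not tested. Same-numbered libraries of the 2 groups did not deviate together (correlations of 0.105, −0.094 and 0.038 for rank and 0.039, −0.030 and −0.027 for length), so the numbers were not taken to pair them. Read counts were not used. Covered length was lowest in PBS replicate 3, which had the lowest background, and the part of depth was not tested.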

Other observations

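Domains were spread unevenly over the chromosomes. They made up 1.98% of the shared regions of chromosome 11 (72 of 3640), 1.74% on chromosome 17 (39 of 2239) and 1.64% on chromosome 7 (46 of 2804), against 0.819% on chromosome 2 (31 of 3783) and 0.782% on chromosome X (8 of 1023). Besides long noncoding RNA genes, 8 domains overlapped tRNA genes (20 genes) and 3 overlapped snRNA genes (4 genes). In all, 8 domains lay over 100 kb from any protein-coding gene. Beside the 3 of extreme height these were nearest to Gadd45g, Mkln1, Prl5a1, Gmds and Icos. The Icos-nearest domain (chr1:61140776-61143798, 140454 bp from the gene) was covered over 2167, 2479, 2190, 2753, 2900 and 2797 bp in PBS replicates 1 to 3 and DOX replicates 1 to 3, and its strongest peak ranked at 11.7%, 8.53%, 9.11%, 5.02%, 5.98% and 4.78%. Its rank difference had the lowest adjusted p of all domains in limma (0.106), above the threshold.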
